A study of Mus musculus with 5 samples.

Results

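The genes of 5 secreted or membrane proteins of the distal nephron were followed through single-cell libraries of mouse kidney: Umod, Egf, Wfdc15b, Defb1 and Tmem207. They were selected by their symbols, and all 5 were found among the 16934 gene symbols listed over the 5 deposited tables. The libraries were made by Drop-seq, in which each captured mRNA carries a unique molecular identifier (UMI), so that a UMI count is a count of captured molecules. The mice were wild type, of the strain spelled C56BL/6N in the labels. There was 1 library each of microdissected inner medulla, outer medulla and cortex, and there were 2 libraries of whole kidney. The labels give no age and no number of animals, and it is not stated whether libraries share animals, the whole kidney ones included, so they may not be separate animals.

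Umod encodes uromodulin, the most abundant protein of normal urine, which thick ascending limb cells carry on a lipid anchor at the apical membrane until the protease hepsin releases it to form filaments. Egf encodes the membrane-bound precursor of epidermal growth factor, which the distal convoluted tubule is known to use to hold the magnesium channel TRPM6 at the cell surface. Defb1 encodes beta-defensin 1, an antimicrobial peptide made constitutively by epithelia of the urinary tract, and Wfdc15b encodes a member of the whey acidic protein (WAP) family of small secreted proteins. Tmem207 encodes a predicted transmembrane protein. The thick ascending limb climbs from the border of the inner and outer medulla into the cortex and hands over to the distal convoluted tubule, the connecting tubule and then the collecting duct, which is made of principal and intercalated cells.

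The promoters of the 4 genes found in the RefSeq promoter table are shown because Umod, Egf and Wfdc15b had their highest levels in the same cell class, as did Tmem207. Each run holds 250 bases before and 50 bases after the annotated start, is read on the minus strand of build GRCm38.p6 and is credited to RefSeq. The capital letter marks the annotated start. The Umod window lies at chr7:119479213-119479512, the Egf window at chr3:129755273-129755572 (the first of 2 annotated starts), the Wfdc15b window at chr2:164221614-164221913 and the Tmem207 window at chr16:26526722-26527021.
Umod: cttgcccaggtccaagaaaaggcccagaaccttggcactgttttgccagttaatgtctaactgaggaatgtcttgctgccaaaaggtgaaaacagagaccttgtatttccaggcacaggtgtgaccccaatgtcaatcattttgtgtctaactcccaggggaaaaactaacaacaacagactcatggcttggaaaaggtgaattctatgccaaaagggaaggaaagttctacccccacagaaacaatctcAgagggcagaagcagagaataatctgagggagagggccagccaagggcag
Egf: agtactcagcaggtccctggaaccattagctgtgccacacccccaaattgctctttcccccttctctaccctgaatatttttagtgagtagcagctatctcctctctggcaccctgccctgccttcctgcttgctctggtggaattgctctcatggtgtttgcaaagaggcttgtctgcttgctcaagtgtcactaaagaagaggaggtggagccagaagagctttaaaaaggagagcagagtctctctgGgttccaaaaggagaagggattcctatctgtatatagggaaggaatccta
Wfdc15b: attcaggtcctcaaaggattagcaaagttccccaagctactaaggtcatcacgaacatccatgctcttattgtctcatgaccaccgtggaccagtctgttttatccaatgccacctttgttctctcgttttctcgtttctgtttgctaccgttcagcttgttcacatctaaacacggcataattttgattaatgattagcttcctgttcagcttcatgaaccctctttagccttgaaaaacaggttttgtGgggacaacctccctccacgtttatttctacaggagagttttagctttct
Tmem207: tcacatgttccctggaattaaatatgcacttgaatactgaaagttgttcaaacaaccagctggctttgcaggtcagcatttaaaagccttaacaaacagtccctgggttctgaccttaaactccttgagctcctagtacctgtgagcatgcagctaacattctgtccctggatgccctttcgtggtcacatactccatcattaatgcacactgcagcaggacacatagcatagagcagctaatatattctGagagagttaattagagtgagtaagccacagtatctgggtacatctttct
Defb1 is named only.

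A barcode was taken as a cell from 200 detected genes upwards, and 894 cells were kept in inner medulla, 2422 in outer medulla, 3070 in cortex, 3304 in whole kidney 2 and 2409 in whole kidney 1, 12099 in all. They held 517887 to 2882062 UMIs per library, with a median of 440 to 516.5 UMIs per cell. The libraries shared 4 cell barcodes among 12094 distinct ones. Cells were clustered without the 5 genes and named from markers other than them, so that no level of these 5 genes helped to define a class. Other genes described here include markers that named the classes. Counts were summed over the cells of a class in a library and are given as counts per 1000000 UMIs of that sum (CPM). Sums of under 30 cells or 20000 UMIs were left out of comparisons. Intervals are exact at 95% and cover counting error only, cells are not replicates, and with 1 library per region no test was run.

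The thick limb-like class had 108, 225, 63, 56 and 48 cells in inner medulla, outer medulla, cortex, whole kidney 2 and whole kidney 1. Its defining cotransporter gene, Slc12a1 (NKCC2, the target of loop diuretics), ran from 4968 to 9156 CPM in the 5 libraries. The distal convoluted tubule-like class had 4, 114, 207, 188 and 159 cells, with Slc12a3 (NCC, the target of thiazides) between 2031 and 2080 CPM in the libraries other than inner medulla, where the class was too small to compare. The library labelled inner medulla also held 98 proximal tubule-like cells. Neither proximal tubule nor thick limb runs inside the inner medulla, so part of that library goes against its label, and where these cells came from was not tested. Where levels are listed by library, that library is therefore named. Ranges given without library names may include it. Shares of UMIs in the thick limb-like class and the nearest gene of each of the 5 by correlation are given with and without it. Other values pooled over all libraries include it.

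Barcodes with under 100 genes were taken as a measure of free RNA, and proximal tubule-like cells as cells that should lack the 5 genes. In the barcodes with under 100 genes, Umod stood at 1924 CPM in inner medulla, 2650 in outer medulla, 620 in cortex, 931 in whole kidney 2 and 771 in whole kidney 1. In proximal tubule-like cells it stood at 67.0, 128, 29.8, 41.2 and 54.4 CPM in the same libraries. The proximal level was 3.48% to 7.05% of the level in the small barcodes. Umod was thus counted in the small barcodes of every library, at levels well above those of proximal tubule-like cells.

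**Figure D1:**
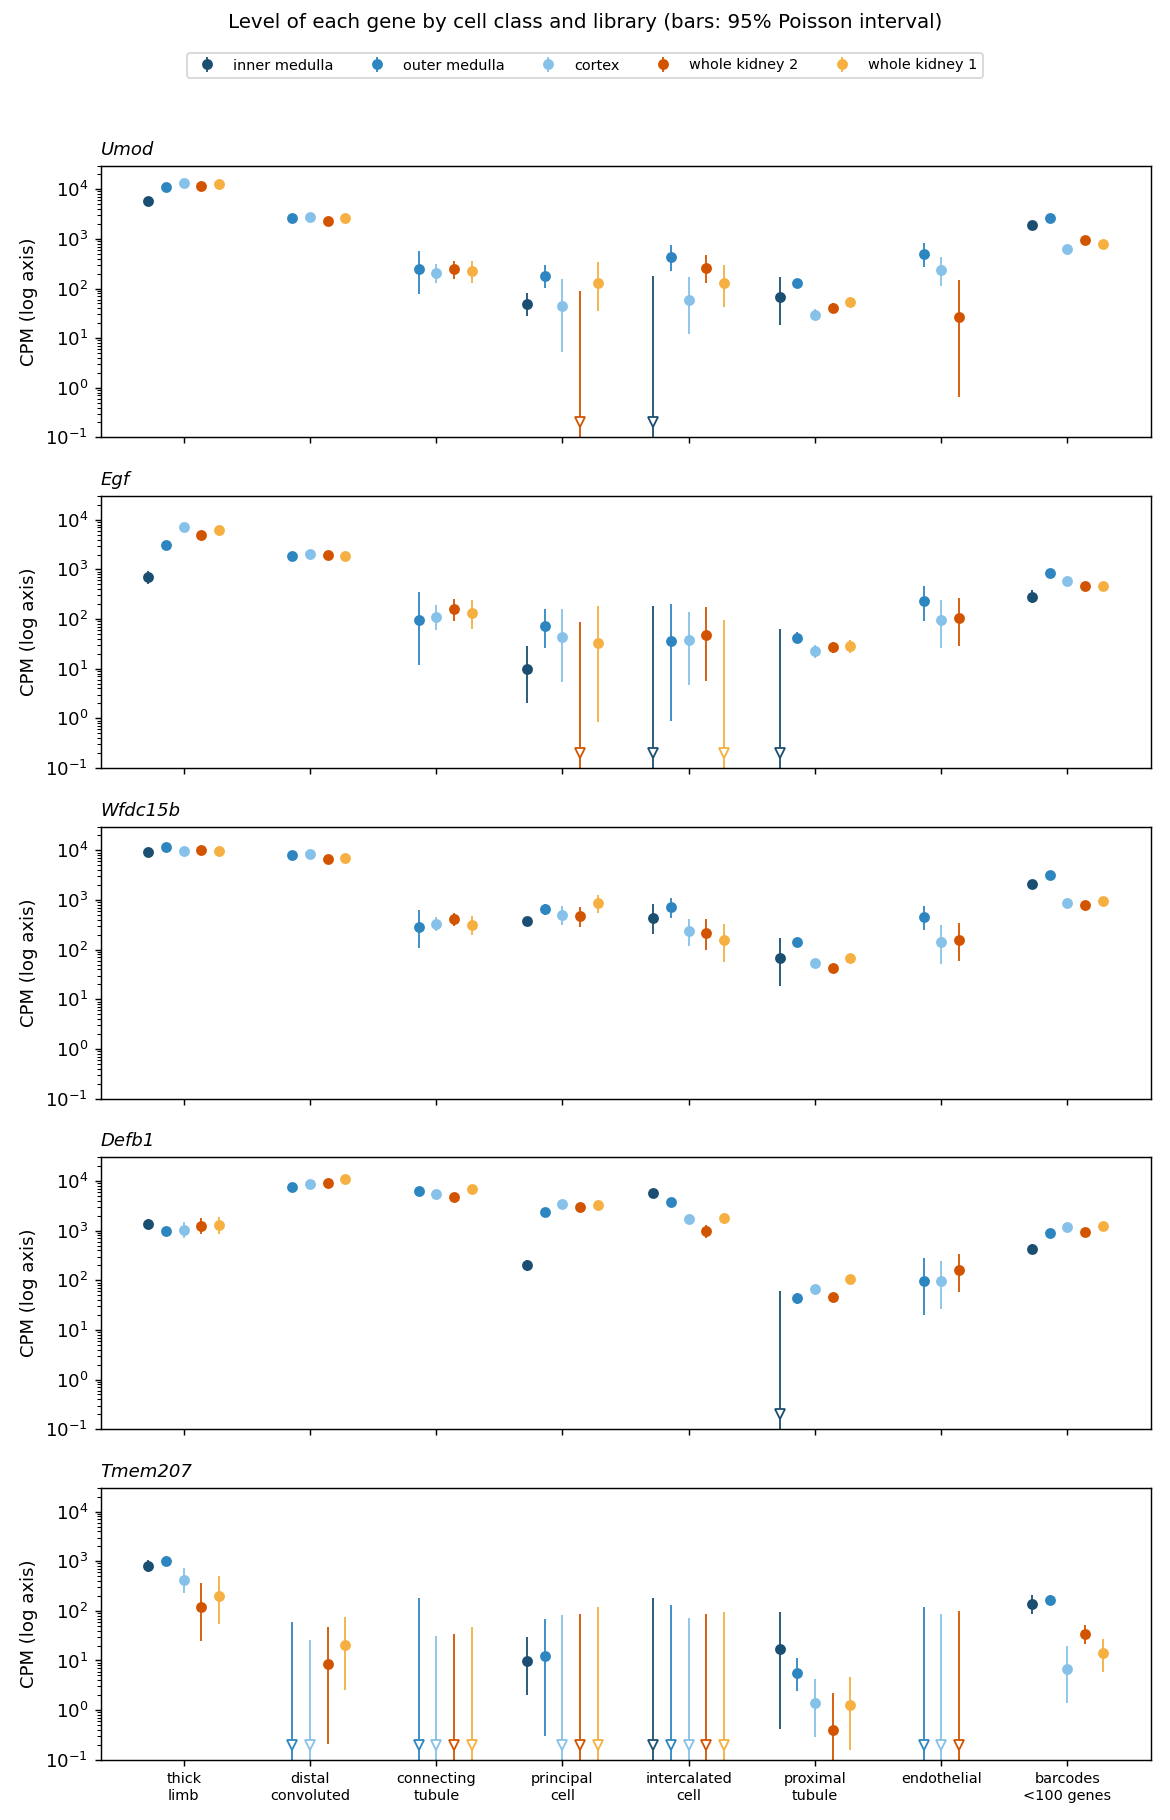
Level of each gene in CPM on a log axis, by cell class and library. Points are class sums with 95% Poisson intervals and open triangles mark sums with 0 UMIs. Umod, Egf, Wfdc15b and Tmem207 stood highest in thick limb-like cells of at least 1 library, and Defb1 in distal convoluted tubule-like cells.

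Umod was highest in thick limb-like cells, lower in distal convoluted tubule-like cells and low in the other tubule classes compared. In thick limb-like cells it reached 5762 CPM in inner medulla, 10952 in outer medulla, 13291 in cortex, 11611 in whole kidney 2 and 12540 in whole kidney 1. In distal convoluted tubule-like cells it reached 2691 CPM in outer medulla, 2772 in cortex, 2238 in whole kidney 2 and 2623 in whole kidney 1. The classes did not overlap in any library. Thick limb-like cells were 4.07-fold to 5.19-fold above distal convoluted tubule-like cells, a log2 ratio of 2.23 ± 0.15 (SD over 4 libraries). With each cell classed by its own marker score in place of its cluster, the mean log2 ratio was 1.28. Connecting tubule-like cells had 205 to 243 CPM, and principal cell-like and intercalated cell-like cells had 0 to 181 CPM and 0 to 426 CPM, so the order of these last 3 classes is not set beyond their counts.

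The Umod signal of distal convoluted tubule-like cells was examined further, since uromodulin is best known from the thick limb. In cortex their level was 4.47-fold that of the barcodes with under 100 genes, in whole kidney 2 it was 2.40-fold and in whole kidney 1 it was 3.40-fold. In outer medulla it was 1.02-fold. Free RNA was estimated from proximal tubule markers at 26.2% of the UMIs of these cells in outer medulla, a share that would hold 693 CPM of Umod against the 2691 CPM counted. In cortex the estimate was 19.7%, which would hold 122 CPM against 2772 CPM. Connecting tubule-like cells of the same 4 libraries stood 9.24-fold to 13.5-fold below the distal convoluted tubule-like cells. Over all libraries, 389 distal convoluted tubule-like cells had an Slc12a3 UMI and no Slc12a1 UMI, a subset chosen after its values were seen. Umod stood at 2663 CPM (2478 to 2859) in them. By library it was 2449 CPM in outer medulla, 2909 in cortex, 2268 in whole kidney 2 and 2894 in whole kidney 1. Just 9 distal convoluted tubule-like cells had an Slc12a1 UMI, with Umod at 6057 CPM (3991 to 8812). A cell without an Slc12a1 UMI may still hold that RNA at this depth, and the source of the Umod UMIs was not tested.

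Egf was shared between the same classes, with a smaller step between them. In thick limb-like cells it reached 691 CPM in inner medulla, 3095 in outer medulla, 7265 in cortex, 4994 in whole kidney 2 and 6320 in whole kidney 1. In distal convoluted tubule-like cells it reached 1887 CPM in outer medulla, 2038 in cortex, 1964 in whole kidney 2 and 1836 in whole kidney 1. The level of the distal convoluted tubule-like cells was nearly flat over the 4 libraries, whereas that of the thick limb-like cells differed widely between libraries. The thick limb-like cells stood 1.64-fold above in outer medulla (1.32 to 2.05) and 3.57-fold above in cortex (2.98 to 4.26), and the mean log2 ratio was 1.41 ± 0.52 (SD over 4 libraries), or 0.46 with cells classed by marker score. Connecting tubule-like cells had 97.4 to 158 CPM, 12.4-fold to 19.4-fold below distal convoluted tubule-like cells. Proximal tubule-like cells had 0 to 42.6 CPM.

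Wfdc15b was nearly as high in distal convoluted tubule-like cells as in thick limb-like cells. In thick limb-like cells it reached 9143 CPM in inner medulla, 11702 in outer medulla, 9512 in cortex, 10271 in whole kidney 2 and 9902 in whole kidney 1. In distal convoluted tubule-like cells it reached 7941 CPM in outer medulla, 8310 in cortex, 6740 in whole kidney 2 and 7019 in whole kidney 1. Thick limb-like cells were the higher in each of the 4 libraries, by 1.14-fold to 1.52-fold, and the mean log2 ratio was 0.46 ± 0.19 (SD over 4 libraries). That order did not hold when each cell was classed by its own marker score, where the mean log2 ratio was -0.30. With TMM factors, which moved the log2 ratio by -0.43 in cortex and -0.53 in whole kidney 1, the mean was 0.13 ± 0.38 (SD over 4 libraries). The order thus depended on the processing. Beyond the distal convoluted tubule the level was far lower. Connecting tubule-like cells had 292 to 419 CPM, 16.1-fold to 27.2-fold lower. Principal cell-like cells had 371 to 853 CPM and intercalated cell-like cells 153 to 711 CPM.

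Defb1 ran the other way along the nephron. In thick limb-like cells it stood at 1382 CPM in inner medulla, 990.0 in outer medulla, 1042 in cortex, 1259 in whole kidney 2 and 1294 in whole kidney 1. In distal convoluted tubule-like cells it reached 7646 CPM in outer medulla, 8732 in cortex, 9136 in whole kidney 2 and 11058 in whole kidney 1. Thick limb-like cells were thus 7.26-fold to 8.55-fold lower, with a mean log2 ratio of -2.98 ± 0.11 (SD over 4 libraries). In the 4 libraries other than inner medulla the thick limb-like level was 0.888-fold to 1.33-fold that of barcodes with under 100 genes, and in inner medulla it was 3.19-fold. Free RNA was estimated at 12.6% to 20.1% of the UMIs of thick limb-like cells in those 4 libraries, a share that would hold 148 to 237 CPM of Defb1. The levels counted were 990.0 to 1294 CPM.

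Unlike Umod, Egf and Wfdc15b, Defb1 stayed high past the distal convoluted tubule. Connecting tubule-like cells had 6184 CPM in outer medulla, 5469 in cortex, 4852 in whole kidney 2 and 6970 in whole kidney 1. Distal convoluted tubule-like cells exceeded them by 1.24-fold to 1.88-fold. Principal cell-like cells came next with 2421 CPM in outer medulla, 3389 in cortex, 3011 in whole kidney 2 and 3281 in whole kidney 1, and intercalated cell-like cells had 3695, 1686, 976 and 1764 CPM in the same libraries. The order of principal and intercalated cell-like cells thus differed between outer medulla and the other 3 libraries. Proximal tubule-like cells had 0 to 108 CPM.

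Tmem207 was the sparsest of the 5 and the one most restricted to the thick limb-like class. Of its UMIs in all cells, 87.9% were in thick limb-like cells (86.9% without inner medulla). There it stood at 808 CPM in inner medulla (55 UMIs), 1032 in outer medulla (99 UMIs), 423 in cortex (13 UMIs), 122 in whole kidney 2 (3 UMIs) and 199.0 in whole kidney 1 (4 UMIs). The distal convoluted tubule-like cells of the 4 libraries held 3 UMIs in all against 119 in the thick limb-like cells. In outer medulla the thick limb-like level was at least 21.0-fold higher and in cortex at least 20.4-fold higher, with 3 UMIs in the sum of that library as the floor for a count of 0. In whole kidney 2 the ratio was 14.6-fold (1.18 to 768) and in whole kidney 1 it was 9.49-fold (1.36 to 105). Connecting tubule-like and intercalated cell-like cells had 0 UMIs in every library.

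Set beside all genes, the step between these classes was past 1 on the log2 scale for 3 of the 5 genes in outer medulla (Umod, Defb1 and Tmem207) and for 4 of 5 in cortex, in whole kidney 2 and in whole kidney 1 (these and Egf). Of all genes with at least 100 CPM in either class, 25.9% were past 1 in either direction in outer medulla, 33.5% in cortex, 38.7% in whole kidney 2 and 42.5% in whole kidney 1. The share was higher where the thick limb-like sum was smaller, from 95964 UMIs in outer medulla to 20096 in whole kidney 1.

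Over all cells kept, the thick limb-like class held 57.9% of Umod UMIs, 41.7% of Egf UMIs, 37.4% of Wfdc15b UMIs and 3.68% of Defb1 UMIs. The distal convoluted tubule-like class held 26.4%, 42.5%, 47.6% and 51.4% of the UMIs of these genes in the same order, and 1.52% of Tmem207 UMIs. The connecting tubule-like class held 24.1% of Defb1 UMIs but 1.75% of Umod UMIs. Without inner medulla the thick limb-like class held 54.0% of Umod UMIs, 40.6% of Egf UMIs, 31.7% of Wfdc15b UMIs, 2.53% of Defb1 UMIs and 86.9% of Tmem207 UMIs. These shares depend on how many cells of each class the libraries held and on the depth of those cells.

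**Figure D2:**
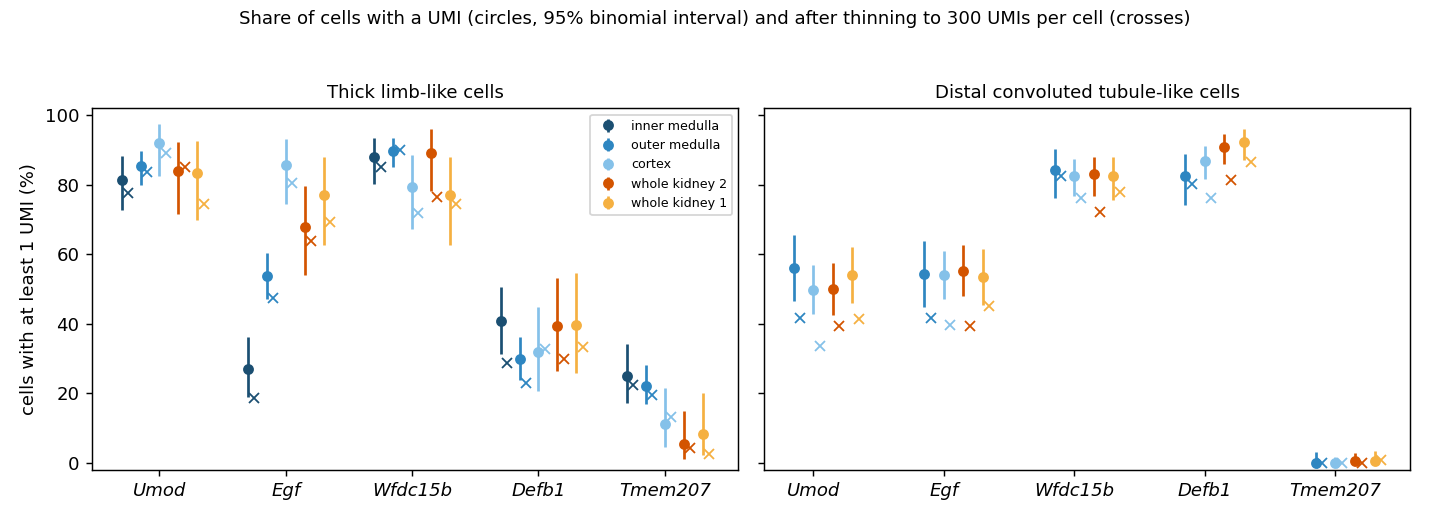
Share of thick limb-like (left) and distal convoluted tubule-like (right) cells with at least 1 UMI, in percent. Circles are shares at full depth with 95% binomial intervals and crosses are shares after each cell was thinned to 300 UMIs. Egf was found in 26.9% of thick limb-like cells in inner medulla and in 85.7% in cortex.

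The share of cells with a UMI followed the levels. Umod had a UMI in 81.5% to 92.1% of thick limb-like cells and in 49.8% to 56.1% of distal convoluted tubule-like cells, against 1.80% to 7.10% of proximal tubule-like cells. The median depth was 348 to 379 UMIs in the first class, 405.5 to 486 in the second and 444 to 534 in the third, so the deeper classes had the lower shares. After thinning to 300 UMIs the Umod shares were 74.4% to 89.1% and 33.7% to 41.8%. Egf had a UMI in 26.9% of thick limb-like cells in inner medulla, 53.8% in outer medulla, 85.7% in cortex, 67.9% in whole kidney 2 and 77.1% in whole kidney 1. After thinning these Egf shares were 18.8%, 47.3%, 80.4%, 63.8% and 69.2%, in the same order of libraries as the levels. Defb1 was found in 82.5% to 92.5% of distal convoluted tubule-like cells, and Tmem207 in 27 of 108 thick limb-like cells in inner medulla and in 50 of 225 in outer medulla.

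Umod and Egf were often counted in the same cells, at a share little above that of unrelated genes. In thick limb-like cells of outer medulla both had a UMI in 113 of 225 cells (50.2%, against 45.9% if the genes were unrelated), Umod alone in 79 and Egf alone in 8. In thick limb-like cells of cortex both had a UMI in 51 of 63 cells. In distal convoluted tubule-like cells of cortex both had a UMI in 68 of 207 cells (32.9%), where 26.9% would hold both if the genes were unrelated. The cells with a Umod UMI there were deeper, with a median of 621 UMIs against 393.5 in those without, so the excess cannot be told apart from depth.

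Of the 5 genes in thick limb-like cells, Egf differed most in the comparisons with inner medulla. For outer medulla over cortex Tmem207 had the larger log2 ratio in size, 1.26, with 13 UMIs in cortex. Egf was 2.35-fold lower in outer medulla than in cortex (1.96 to 2.80), a log2 ratio of -1.23. It was 4.48-fold lower in inner medulla than in outer medulla (3.28 to 6.23), a log2 ratio of -2.15. Inner medulla against cortex gave a 10.5-fold lower level (7.65 to 14.7). The whole kidney libraries differed by a log2 ratio of -0.34 for whole kidney 2 over whole kidney 1. All 3 regional differences in Egf were larger than that gap, the one spread between libraries of the same kind. With cells classed by marker score the log2 ratios were -0.61 for outer medulla over cortex and -1.46 for inner over outer medulla. The level of Egf in barcodes with under 100 genes was 285 CPM in inner medulla, 830 in outer medulla and 580 in cortex.

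**Figure D3:**
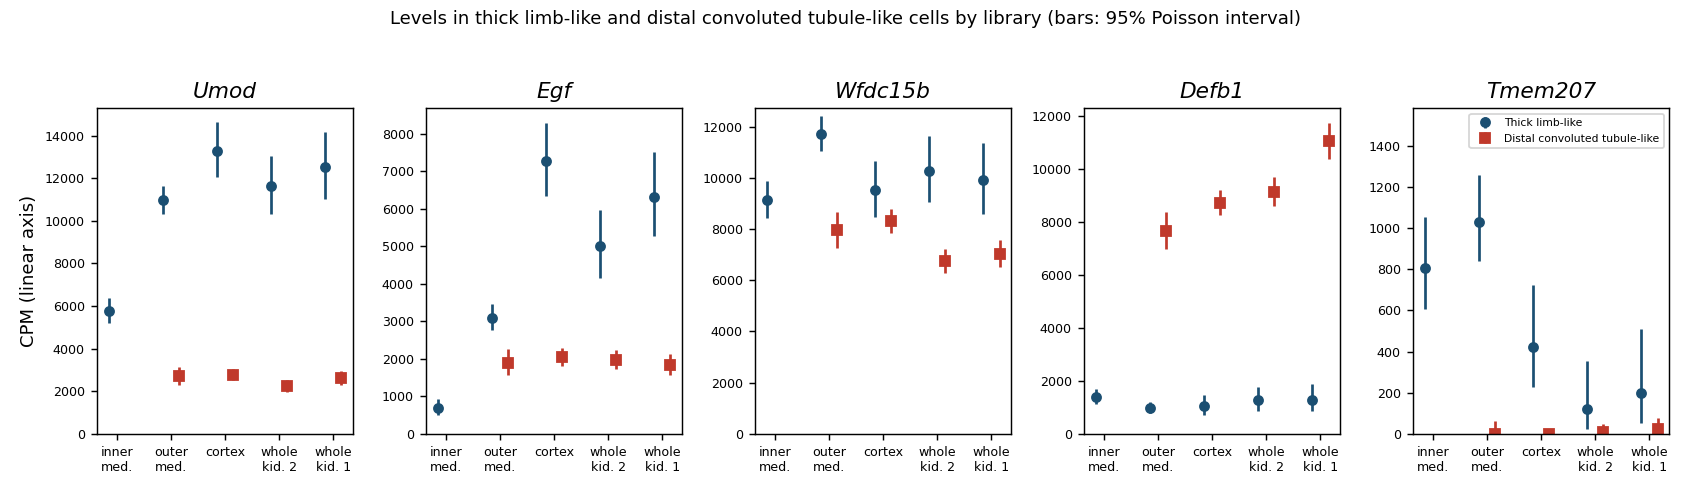
Level of each gene in CPM on a linear axis that starts at 0, in thick limb-like cells (circles) and distal convoluted tubule-like cells (squares) of each library, with 95% Poisson intervals. Egf in thick limb-like cells stood at 691 CPM in inner medulla, 3095 in outer medulla and 7265 in cortex, while distal convoluted tubule-like cells stayed between 1836 and 2038 CPM.

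Umod in thick limb-like cells was 1.90-fold lower in inner medulla than in outer medulla (1.69 to 2.14), a log2 ratio of -0.93, or -0.35 with cells classed by marker score. Between outer medulla and cortex its log2 ratio was -0.28, and scaling by TMM factors, which moved that comparison by 0.28, took it to 0.0032, so no direction is read. Wfdc15b differed little, with log2 ratios of -0.36 for inner over outer medulla (0.19 by marker score, so no direction is read) and 0.30 for outer medulla over cortex. Tmem207 was 2.44-fold higher in outer medulla than in cortex (1.36 to 4.74), which rests on 99 and 13 UMIs. For inner over outer medulla its log2 ratio was -0.35, or 0.38 with cells classed by marker score, so no direction is read. Defb1 had log2 ratios of 0.48 for inner over outer medulla and -0.07 for outer medulla over cortex, the second with a fold interval of 0.63 to 1.47.

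Past 1 on the log2 scale were 1 of the 5 genes for inner over outer medulla (Egf), 2 for inner medulla over cortex (Umod and Egf), 2 for outer medulla over cortex (Egf and Tmem207) and 0 for whole kidney 2 over whole kidney 1. Of all genes with at least 100 CPM, 24.3%, 41.7%, 30.2% and 48.4% were past 1 in these comparisons. The whole kidney pair had the smallest class sums and the highest share. A count of members near these shares says nothing of the members as a group.

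The regional step in Egf had no counterpart of that size in distal convoluted tubule-like cells. There the log2 ratio of outer medulla over cortex was -0.11 for Egf (0.93-fold, 0.74 to 1.15), -0.04 for Umod, -0.07 for Wfdc15b and -0.19 for Defb1. The difference between the Egf step in the 2 classes was not tested.

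Thick limb cells come in forms that differ in their claudins, the tight junction proteins that set which ions pass between cells: Cldn10 marks cells that favour sodium and Cldn16 cells that favour calcium and magnesium. Thick limb-like cells were split by these genes after their values were seen. In outer medulla the 17 cells with a Cldn16 UMI and no Cldn10 UMI had Egf at 6137 CPM (4597 to 8027), against 2082 CPM (1724 to 2494) in the 122 cells with Cldn10 and no Cldn16. Whole kidney 2 gave 9174 CPM in 9 cells against 2520 CPM in 16, and whole kidney 1 gave 8410 CPM in 7 cells against 3958 CPM in 10. In cortex the order was not the same, with 5558 CPM (4084 to 7391) in 14 cells against 7313 CPM (5567 to 9433) in 16. In inner medulla 73 of 108 cells had Cldn10 and no Cldn16, and Egf stood at 675 CPM in them. Within the Cldn10 cells Egf thus stood at 675 CPM in inner medulla, 2082 in outer medulla and 7313 in cortex, with intervals that did not overlap. Within the Cldn16 cells it stood at 6137 CPM in outer medulla and 5558 in cortex, with intervals that overlapped. Whether the mix of these cells bears on the regional step in Egf was not tested.

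Other genes also differed between regions in the thick limb-like class. Cldn16 itself stood at 29.4 CPM in inner medulla (2 UMIs), 333 in outer medulla and 489 in cortex, while Cldn10 stood at 3719, 3084 and 1401 CPM in the same order. Wfdc2, another WAP-family gene, stood at 250 CPM in inner medulla, 1167 in outer medulla and 1922 in cortex. Klk1 (tissue kallikrein), a secreted protease and marker of the connecting tubule, stood at 750, 2699 and 8437 CPM. Pth1r, the parathyroid hormone receptor, stood at 29.4, 271 and 1368 CPM, and Tmem52b at 73.5, 240 and 1368 CPM. Kap, a proximal tubule gene, stood at 323, 6742 and 2346 CPM. Free RNA was estimated at 4.02% of the UMIs of these cells in inner medulla, 20.1% in outer medulla and 12.6% in cortex. That estimate came from proximal tubule markers that include Kap. The part of RNA from other cells in the Klk1 and Kap levels was not tested.

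Gene lists around the 5 proteins gave the following for outer medulla over cortex in thick limb-like cells, beside a median log2 ratio of -0.05 over all 7927 genes measured at 20 CPM or more. Of 22 measured genes of the endoplasmic reticulum secretory machinery, which folds uromodulin and other secreted proteins, 10 were above 0 and 12 below, with a median of -0.08. Of 5 measured genes of the epidermal growth factor system, 1 was above and 4 below, with a median of -1.28, but apart from Egf these had 0 to 9 UMIs in either sum. The 3 proteases that process uromodulin or act beside it had a median of -0.17, and hepsin (Hpn) stood at 198 CPM in outer medulla against 195 CPM in cortex. The 14 thick limb transport genes were split 7 above and 7 below, with a median of 0.04. For inner over outer medulla the transport genes had a median of -0.40 and the secretory machinery -0.23, beside -0.20 over all 7376 genes measured.

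Between thick limb-like and distal convoluted tubule-like cells, the secretory machinery had no common direction over the libraries. In outer medulla 7 of 23 genes were above 0 and 16 below, with a median of -0.28 beside 0.22 over all 7310 genes measured. In cortex 12 were above and 11 below, with a median of 0.08 beside 0.17 over all 7525. In whole kidney 2 there were 15 above and 8 below, with a median of 0.20 beside 0.08, and in whole kidney 1 there were 9 above and 15 below, with a median of -0.30 beside -0.06. In cortex hepsin stood at 195 CPM in thick limb-like cells against 201 CPM in distal convoluted tubule-like cells, so the protease that releases uromodulin did not differ beyond counting error (0.33 to 2.38 as a fold). Wfdc2 stood at 1922 CPM against 672 CPM, a larger step than that of Wfdc15b. Tmem52b, a small membrane protein gene, stood at 1368 CPM against 2509 CPM. Muc1, Sec61a1 and Dnajb11, which with Umod are genes of autosomal dominant tubulointerstitial kidney disease, had 0 to 13 UMIs in either sum and are not read. Transport and magnesium genes are left out here because many of them named the classes.

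Defb1 in principal cell-like cells was the largest regional difference among the comparisons of the 5 genes made here. Several markers of that class also differed between the regions, as given below. Defb1 stood at 202 CPM in inner medulla (61 UMIs in 475 cells), against 2421 CPM in outer medulla and 3389 CPM in cortex. The inner medulla level was 16.8-fold lower than that of cortex (12.4 to 22.9), a log2 ratio of -4.00, and whole kidney 2 and whole kidney 1 had 3011 and 3281 CPM, levels close to that of cortex. Of all genes with at least 100 CPM, 40.7% were past 1 in this comparison. The log2 ratio stayed between -4.15 and -3.67 under the 8 alternatives tried.

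Most of the principal cell-like cells of inner medulla formed a cluster of their own. That cluster held 425 cells of inner medulla and 3 of whole kidney 1, was led by Aqp4, a basolateral water channel, and had Defb1 at 132 CPM (93.1 to 182) in inner medulla. The other principal cell-like cluster held cells of all 5 libraries. Within it Defb1 stood at 1111 CPM (712 to 1653) in 50 cells of inner medulla, 2421 CPM in 168 cells of outer medulla and 3389 CPM (2875 to 3969) in 64 cells of cortex. The direction was thus the same within the shared cluster and the size smaller. Class markers differed too: inner medulla and cortex had Aqp4 at 3589 and 132 CPM and Elf5 at 567 and 44.0 CPM. In the same order Aqp2 stood at 22273 and 15341 CPM, Fxyd4 at 7632 and 5524 and Avpr2 at 653 and 748. Lower in inner medulla were Hsd11b2 at 398 and 6867 CPM and Aqp3 at 1894 and 6185. So were Scnn1b at 23.2 and 506 CPM, Scnn1g at 33.2 and 550 and Kcne1 at 0 and 572. With 1 library of inner medulla, the region, the library and the kind of cell cannot be told apart.

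In intercalated cell-like cells Defb1 differed in the opposite direction. It stood at 5770 CPM in 40 cells of inner medulla and 3695 CPM in 53 cells of outer medulla, against 1686 CPM in 73 cells of cortex. Inner medulla was 3.42-fold above cortex (2.57 to 4.57) and outer medulla 2.19-fold above it (1.63 to 2.95). Whole kidney 2 and whole kidney 1 had 976 and 1764 CPM, a log2 ratio of -0.85, smaller in size than the 1.77 of inner medulla over cortex. Under TMM scaling, which moved that comparison by -0.47, it was 1.30. This comparison was added after its values were seen, and 51.7% of all genes with at least 100 CPM were past 1 in it.

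**Figure D4:**
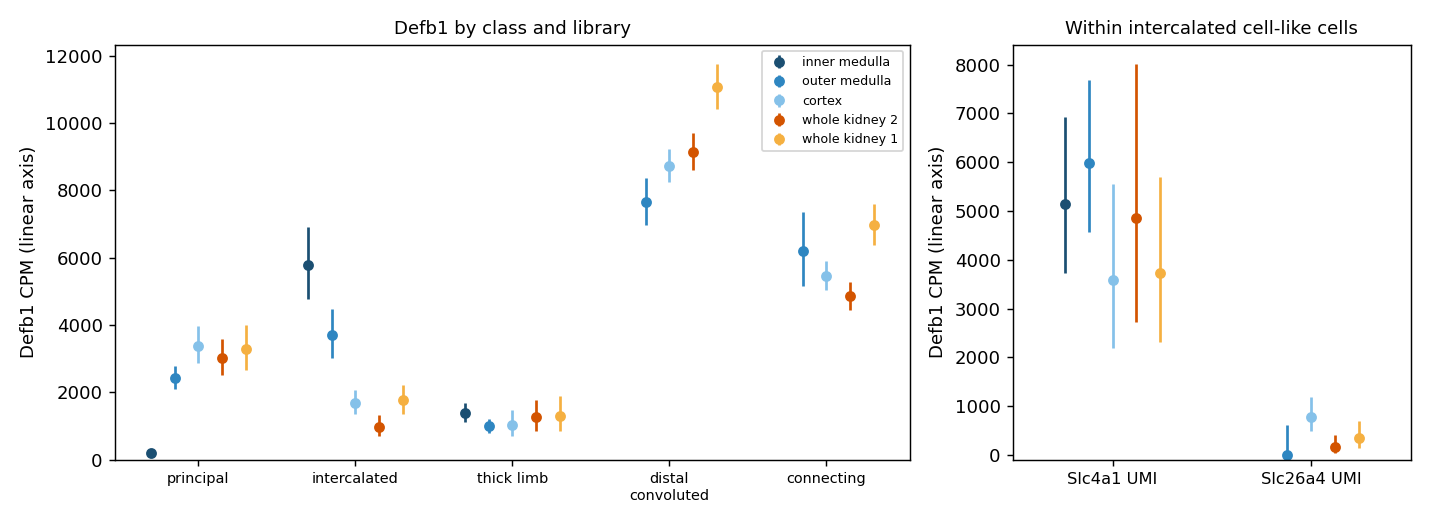
Defb1 level in CPM on a linear axis with 95% Poisson intervals, by class and library (left) and in intercalated cell-like cells with a UMI of Slc4a1 or of Slc26a4 but not both (right). Principal cell-like cells of inner medulla stood at 202 CPM and intercalated cell-like cells of inner medulla at 5770 CPM.

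Intercalated cells are of acid-secreting type A, marked by the anion exchanger Slc4a1, and of base-secreting types, marked by pendrin, Slc26a4. Split by these genes after their values were seen, 49 cells had an Slc4a1 UMI and 100 an Slc26a4 UMI, 0 had both and 144 had neither. Defb1 was 11.9-fold higher in the Slc4a1 cells over all libraries (8.17 to 17.9), with 160 against 33 UMIs. Within cortex it was 4.59-fold higher (2.37 to 8.81), within whole kidney 2 it was 31.0-fold higher (9.86 to 128) and within whole kidney 1 it was 10.9-fold higher (4.47 to 30.4). In outer medulla the Slc4a1 cells had 61 UMIs and the Slc26a4 cells 0, at least 11.9-fold higher. The Slc4a1 cells were 13 against 2 Slc26a4 cells in inner medulla, 12 against 11 in outer medulla, 8 against 31 in cortex, 6 against 28 in whole kidney 2 and 10 against 28 in whole kidney 1. The libraries thus differed in the share of these kinds of cell. Among Slc4a1 cells alone Defb1 stood at 5149 CPM in inner medulla (3726 to 6936), 5986 in outer medulla (4579 to 7689), 3593 in cortex (2195 to 5549), 4856 in whole kidney 2 and 3726 in whole kidney 1. Inner medulla over cortex was then 1.43-fold (0.825 to 2.57) and outer medulla over cortex 1.67-fold (0.991 to 2.91). Both intervals include 1 but are wide, as they rest on 13, 12 and 8 cells. The 144 cells with neither UMI are not part of this comparison. Whether the share of these kinds of cell bears on the regional difference in the whole class was not tested.

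The genes most like each of the 5 in their pattern were taken over 32 class sums and 5861 genes, by Pearson's r of log2 levels (CPM with a pseudocount of 10). These sums share libraries and depth, so r is a description. Umod and Egf were each other's nearest gene, at r = 0.93. Next to Umod came Gpx6 (0.89), Ppp1r1a (0.88), Wfdc15b (0.86), 1700028J19Rik (0.84) and Slc5a3 (0.84), and Ppp1r1a was also a marker that named the thick limb class. Egf had in addition Ly6a (0.88). Wfdc15b was most like Bag1 (0.89), with Gpx6, Egf, Mfsd4a, Umod and Ckb after it (0.86 to 0.88).

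Defb1 was most like Tmem213 (0.91), Hoxd8 (0.90), Scnn1a (0.89), a subunit gene of the epithelial sodium channel, Efhd1 (0.86) and Grb14 (0.84). None of these was among the nearest genes of another of the 5. Tmem207 was most like Defb42 (0.94), another beta-defensin gene, then Irx1 (0.92), Cldn19 (0.91), Nccrp1 (0.90), Ppp1r1b (0.89) and Sim2 (0.88), of which Cldn19 and Ppp1r1b also named the class. Defb42 stood highest in thick limb-like cells of inner medulla at 191 CPM. Between the 5 genes, r was 0.29 for Umod with Defb1 and -0.06 for Defb1 with Tmem207, so the beta-defensin genes Defb1 and Defb42 stood with different classes. Over the 27 sums without inner medulla, Umod and Egf stayed each other's nearest gene (0.94) and Defb42 that of Tmem207 (0.96). The nearest gene of Wfdc15b was then Gpx6 (0.89) and that of Defb1 Hoxd8 (0.93), with Tmem213 at 0.89, and r was 0.32 for Umod with Defb1.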

How the data were processed

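Per the labels, kidneys were perfused, minced, digested with a cold-active protease, fixed in methanol and run through Drop-seq. The authors deposited raw UMI counts by gene symbol, without normalization, for barcodes with at least 50 genes. The submitters' processing notes name build mm9 and Seurat 2.3.1 without a role, and the aligner is not given in the sources used here. No mitochondrial genes were listed.

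Cells with at least 200 genes were clustered with scanpy 1.11.5 and leidenalg 0.10.2 (2000 variable genes, 30 components, 15 neighbours, resolution 1) without the 5 genes. Each cluster took the class whose markers scored highest, with at least 3 detected. A cluster of 161 cells, 130 of them from inner medulla, stayed unnamed. Scrublet (expected rate 5%) marked 22 of 12121 cells, too few for the caller to have worked. These were dropped, and doublets may remain. Sums per class and library were divided by the class total. Log2 ratios used a pseudocount of 10 CPM and understate changes of low genes, while folds are plain ratios. Intervals are exact (Poisson, binomial and conditional) at 95%. A fold against 0 counts used 3 counts. No test was run. edgeR 4.0.16 gave TMM factors for 1 alternative.

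Named genes were the 5, the 6 nearest genes of each, measured genes of the lists and class markers; some of these results are not reported here. Subsets split by marker UMIs, and Defb1 in intercalated cell-like cells, were added after values were seen. The 5 genes and the lists were chosen with earlier results of these data known.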

Additional observations from a re-analysis of the deposited data

Results flagged for a closer look

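Defb1 differed in opposite directions between regions in different classes, and these differences were not tested. For inner medulla over cortex its log2 ratio was -4.00 in principal cell-like cells and 1.77 in intercalated cell-like cells. For inner over outer medulla it was 0.48 in thick limb-like cells, -3.52 in principal cell-like cells and 0.64 in intercalated cell-like cells. For outer medulla over cortex it was -0.19 in distal convoluted tubule-like cells, -0.48 in principal cell-like cells and 1.13 in intercalated cell-like cells. Each value rests on 1 library per region, and most principal cell-like cells of inner medulla formed a cluster of their own. Among intercalated cell-like cells with an Slc4a1 UMI, inner medulla over cortex was 1.43-fold with an interval of 0.825 to 2.57.

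Barcodes with at least 100 but under 200 genes, which entered no comparison, also held UMIs of the 5 genes, above the limit that a count of 0 allows. Over all libraries Umod stood at 1052 CPM in them, Egf at 478.5 CPM, Wfdc15b at 1285 CPM, Defb1 at 1090 CPM and Tmem207 at 58.49 CPM. Whether these barcodes are small cells or free RNA was not tested.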

How the results depend on the processing

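Adding the 5 genes to the clustering, a resolution of 2, a pseudocount of 1 and removal of the 5% highest doublet scores kept the direction of each log2 ratio they gave, except that Defb1 in thick limb-like cells, outer medulla over cortex, was -0.07 as reported and 0.02 with the 5 genes in the clustering. Classing each cell by its own marker score changed most. For thick limb over distal convoluted tubule it gave log2 ratios of 1.28 for Umod, 0.46 for Egf, -0.30 for Wfdc15b (reversed) and -2.79 for Defb1. For outer medulla over cortex in thick limb-like cells it gave 0.14 for Umod (reversed), -0.61 for Egf and 0.56 for Wfdc15b. For inner over outer medulla it gave -0.35 for Umod, -1.46 for Egf, 0.19 for Wfdc15b (reversed) and 0.38 for Tmem207. The Tmem207 value was -0.35 as reported, and no direction was read for it. Defb1 in thick limb-like cells, outer medulla over cortex, was 0.14 by marker score and 0.21 with TMM factors, against -0.07 as reported. TMM factors gave 1.89, 0.13 and -3.31 for Umod, Wfdc15b and Defb1 between thick limb and distal convoluted tubule. They gave 0.0032 (reversed), -0.95 and 0.58 for Umod, Egf and Wfdc15b between outer medulla and cortex, and 1.30 for Defb1 in intercalated cell-like cells. Subtracting free RNA gave -3.20 for Defb1 between thick limb and distal convoluted tubule (3 libraries), and -1.13 and -0.54 for Umod and Wfdc15b between inner and outer medulla. The causes were not tested.

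Leaving out each library in turn, the mean log2 ratio of thick limb over distal convoluted tubule ran from 2.18 to 2.29 for Umod, 1.28 to 1.65 for Egf, 0.42 to 0.55 for Wfdc15b and -3.03 to -2.95 for Defb1. Genes past 1 for outer medulla over cortex in thick limb-like cells were 9.57% at 500 CPM and 61.7% with no filter, for inner over outer medulla 12.2% and 49.7%, and in intercalated cell-like cells 31.8% at 500 CPM. A minimum of 500 genes per cell left too few thick limb-like and intercalated cell-like cells and was not run for them. The marker score, the doublet removal and the free RNA subtraction were not run for intercalated cell-like cells, which fell under the minimum. No paired analysis was possible because each region has 1 library, which leaves no pairs between regions. The ratios of thick limb over distal convoluted tubule were taken within each library, with their SD over libraries. Depth limits Tmem207 most, with 3 to 13 UMIs in thick limb-like cells of cortex and whole kidney.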
